A study of Rattus norvegicus with 12 samples.

Results

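The 10 genes described here are interleukins and other cytokines of the rat: Il1a, Il1b, Il18 and Il33, the antagonist Il1rn, the gp130 cytokines Il6, Il11 and Lif, Tnf and Csf1. They were chosen by name. A probe belonged to the set when its gene name on the array equalled one of these symbols and it was not a control, which gave 14 probes of the 45598 on the array and 10 of its 36172 gene names. Lif had 3 probes, Tnf and Csf1 had 2 each, and the other genes had 1 each.

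RNA was measured on 12 one-colour Agilent arrays, 3 in each of 4 groups. The cultured cells were small hepatocytes, a proliferating progenitor population of rat liver, from the livers of F344 rats. Cells carrying CD44, an adhesion receptor of the cell surface, had been picked out with magnetic beads 9 days after plating and grown on Matrigel, a basement membrane extract rich in laminin-111. At passage 2 they spent 3 h on dishes with 1 of 3 coatings, called LN111 where the coat was laminin-111, LN511 where it was laminin-511 and Mat where it was Matrigel. The cells of all 3 coatings thus shared the sort, the earlier Matrigel culture and a medium without serum that held 10 ng/mL EGF, 10 mM nicotinamide and the glucocorticoid dexamethasone. Mature hepatocytes isolated from fresh rat livers (MH) were the control. No label states whether the 3 arrays of a group stand for separate rats or separate cultures, so p-values describe the spread among these RNA samples, which may be technical. Sorting, passage, medium and coating all separate the cultured cells from MH and cannot be told apart.

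Interleukin-1 alpha and beta, interleukin-18 and interleukin-33 belong to 1 family of inflammatory signals that act through paired receptors and the adaptor MyD88, and interleukin-1 receptor antagonist occupies the same receptor without signalling. Interleukin-6, interleukin-11 and leukaemia inhibitory factor each bind a receptor of their own that pairs with the shared subunit gp130 (Il6st) and activates STAT3, the signal through which hepatocytes switch on acute-phase proteins. In liver, resident macrophages (Kupffer cells) are a well-known source of interleukin-1, interleukin-6 and TNF, and the growth factor CSF-1 keeps those macrophages alive.

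Levels are given as the log2 of the processed signal divided by the 75th percentile of that array, so 0 is the level of a spot at that percentile and a step of 1 is a doubling. Values of a group follow the array numbers 1, 2 and 3. A spot was well above background where the scanner software marked it so. Testing was limited to probes that reached this mark on every array of 1 or more groups in the fit. Tests were limma's, two-sided, with Benjamini-Hochberg adjustment over all probes tested and a threshold of 0.05, and "cultured" is the mean of the 3 coatings. Errors of differences are standard errors (SE), and those of group means are standard deviations (SD). Where a probe was below background throughout 1 group, "at least N-fold" sets the brighter group's mean against a floor in the dimmer one, namely the mean over its arrays of the probe's own signal or the array's lowest signal well above background, whichever was higher.

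Between 52.2% and 62.7% of the 58717 non-control spots were well above background on each array, and none was saturated. That scaling percentile lay between 1190 and 2090 units in LN111, 1100 and 1320 in LN511, 1870 and 3030 in Mat, and 740 and 945 in MH. LN111 array 3 had 1126 outlier spots, against 350 to 499 on the other arrays. The number of arrays limits the precision. Arrays sat on 2 slides, the first with the MH arrays and Mat arrays 1 and 2, the second with the LN111 and LN511 arrays and Mat array 3. Slide and group were therefore partly mixed, and values with the slide as a block stand beside the calls against MH or between coatings that it ended. Of 11 hepatocyte markers on the array, 8 to 10 were well above background on the cultured arrays and all 11 on the MH arrays. Alb, which encodes albumin, had levels of 5.32 to 6.57 in the cultured cells and 7.21 to 7.53 in MH.

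Il1a, Il1b, Il18 and Il33 were lower in cultured cells than in MH, while Il1rn, Il11, Tnf and Csf1 were higher. The Tnf call came from probe A_64_P034414 alone, as its other probe was too dim to be tested. With the slide as a block neither Tnf (1.75, limma adjusted p = 0.454) nor Il1rn (1.08, adjusted p = 0.216) passed. Lif passed on 1 of its 3 probes in cultured cells and on all 3 on LN511. Of the 12 member probes tested, 10 passed in cultured cells against MH, 6 higher and 4 lower, where 71.6% of all 23641 probes passed, 31.3% higher and 40.2% lower. A count of 10 of 12 is thus near that background and is no result about these genes. The median difference of the 12 probes was 0.98, against -0.15 over all probes tested. Il1a and Il1b passed the signal filter only through MH, and Il11, Tnf, Lif and the Csf1 probe A_44_P1103077 only through cultured cells, so their differences were partly set by the filter.

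Il1b, Il6 and Tnf shared a further pattern, with low values on array 2 of every coating. The stretches before their start sites are shown for that reason, each 250 bases long, from RefSeq on the build GRCr8 (8 of the 10 genes had an entry), written 5′ to 3′ on the strand of the gene and ending 1 base before the start site. Capitals mark matches on either strand to 5 patterns, which are NF-kB (GGG and CC with any 5 bases between them), C/EBP (TTGNGCAA), AP-1 (TGANTCA), CRE (TGACGTCA) and TATA box (TATAAA).
Il6 chr4:5894576-5894825 (minus strand): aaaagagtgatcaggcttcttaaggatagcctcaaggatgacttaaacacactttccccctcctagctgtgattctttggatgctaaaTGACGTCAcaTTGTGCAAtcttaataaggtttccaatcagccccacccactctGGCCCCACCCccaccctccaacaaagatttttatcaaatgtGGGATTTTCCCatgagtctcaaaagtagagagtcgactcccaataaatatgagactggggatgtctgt
Il1b chr3:137036582-137036831 (minus strand): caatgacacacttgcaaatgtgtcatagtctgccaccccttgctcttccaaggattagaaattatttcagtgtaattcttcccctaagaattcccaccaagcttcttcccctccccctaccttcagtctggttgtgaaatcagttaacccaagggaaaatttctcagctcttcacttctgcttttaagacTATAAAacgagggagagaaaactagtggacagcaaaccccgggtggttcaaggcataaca
Tnf chr20:3626435-3626684 (plus strand): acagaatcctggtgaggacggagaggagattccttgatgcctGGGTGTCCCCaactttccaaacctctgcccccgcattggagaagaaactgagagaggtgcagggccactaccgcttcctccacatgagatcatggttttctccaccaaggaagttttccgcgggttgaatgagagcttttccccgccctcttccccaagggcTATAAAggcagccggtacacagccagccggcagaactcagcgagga
The Il6 stretch held a CRE match at bases -162 to -155 from the start, a C/EBP match at -152 to -145, and NF-kB matches at -109 to -100 and at -68 to -59, the last overlapping another at -67 to -58. The Tnf stretch held an NF-kB match at -208 to -199 and TATAAA at -46 to -41. The Il1b stretch held TATAAA alone, at -60 to -55. Il33 and Il1rn were also lowest on array 2 of every coating, by smaller gaps, and their stretches are not printed. The Il1rn stretch held 1 NF-kB match and 1 TATAAA match, and Il33 had no NF-kB match. Among members without this pattern, the Il18 stretch held 1 NF-kB match, at -31 to -22. Those of Il1a and Il11 held 1 AP-1 match each and no NF-kB match. Over 33469 promoters of this length, 42.3% held the NF-kB letters, 2.29% the C/EBP letters, 6.34% the AP-1 letters, 1.59% the CRE letters and 12.9% TATAAA. These matches describe letters only and do not show that a factor binds there.

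**Figure D1:**
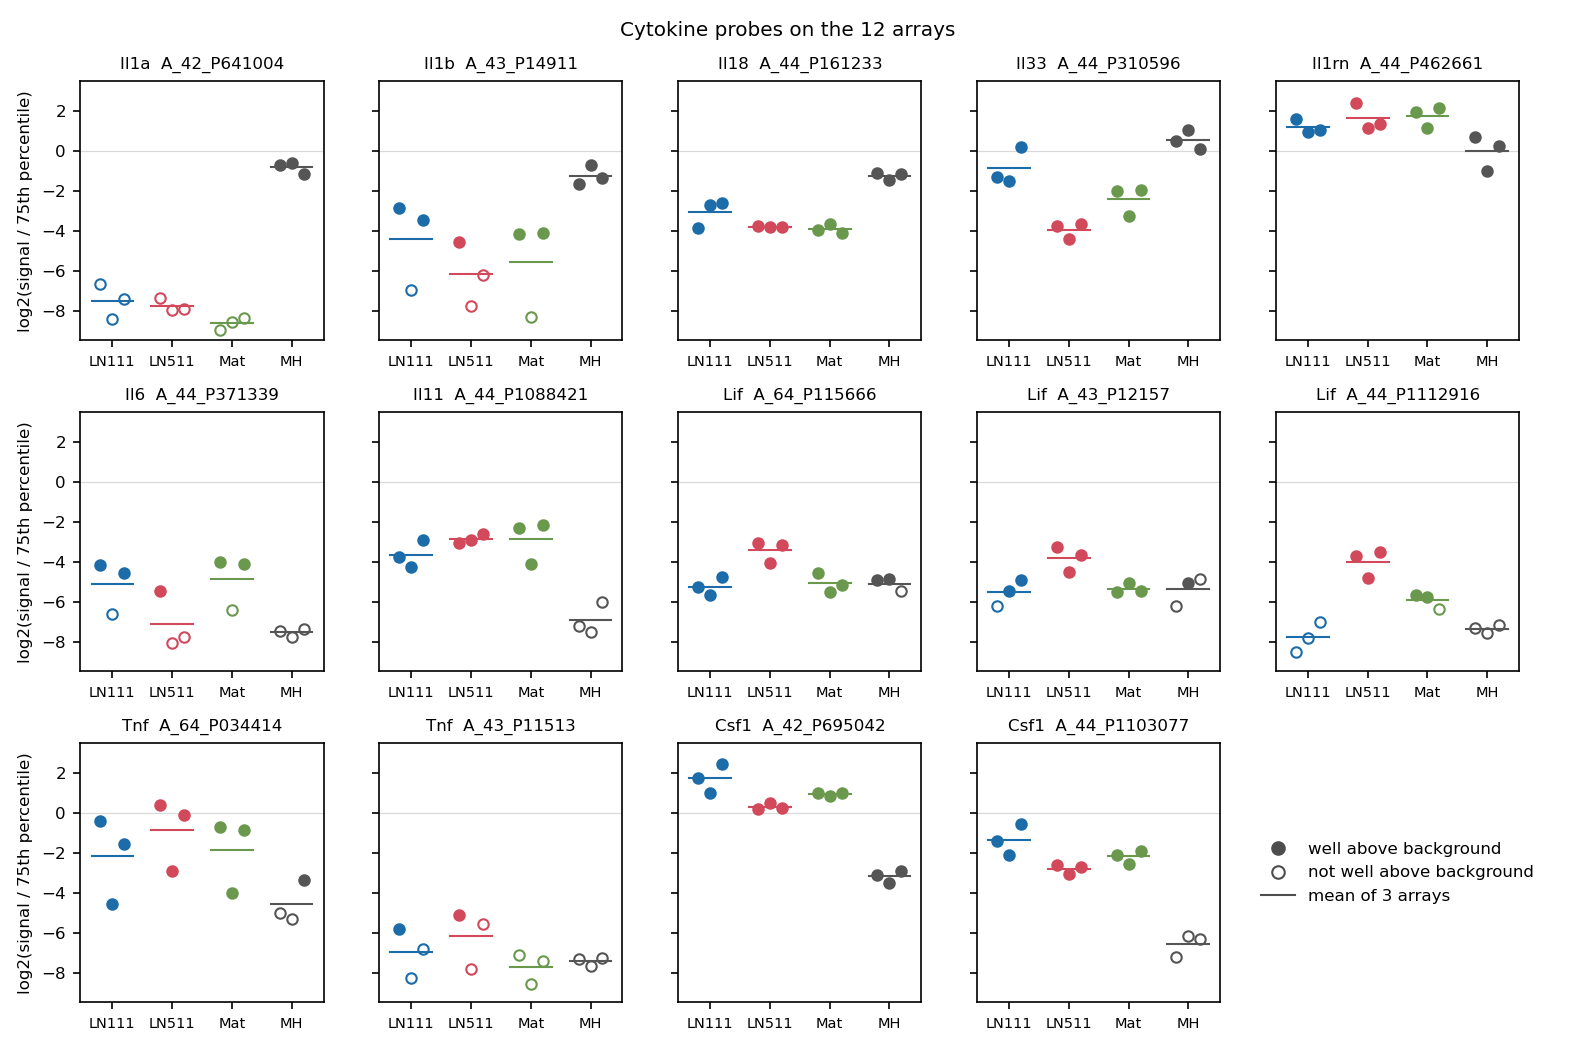
Level of each of the 14 member probes on the 12 arrays, as log2 of the processed signal over the array's 75th percentile, by group (LN111, LN511, Mat, MH). Each point is 1 array, filled where well above background and open where not, and each line is the mean of 3 arrays; Il1a is filled in MH alone, and the middle points of Il1b, Il6 and Tnf lie below their neighbours in each coating.

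Il1a encodes interleukin-1 alpha, which acts as a precursor at the cell surface or when released from dying cells. Its probe lies on chr3:116913748-116913807 of rn4. It read -6.67, -8.44 and -7.41 on LN111, -7.37, -7.99 and -7.94 on LN511, -8.96, -8.56 and -8.39 on Mat, and -0.69, -0.60 and -1.16 in MH. No cultured array was well above background, all MH arrays were, and the groups did not overlap. Il1a was at least 37.8-fold lower in cultured cells than in MH (limma adjusted p = 1.88e-08). By coating it was at least 36.7-fold lower on LN111, 29.4-fold lower on LN511 and 49.8-fold lower on Mat (limma adjusted p = 2.14e-07, 1.76e-07 and 7.87e-08).

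Il1b encodes interleukin-1 beta, the secreted form that needs cleavage by caspase-1. Its probe, at chr3:116964465-116964524 of rn4, gave -2.83, -6.97 and -3.45 on LN111, -4.55, -7.78 and -6.21 on LN511, -4.18, -8.31 and -4.13 on Mat, and -1.64, -0.69 and -1.37 in MH. Array 2 of each coating and LN511 array 3 were not well above background, and every cultured array lay below every MH array. Il1b was lower in cultured cells by a difference of -4.14 ± 1.09 (SE), a 17.7-fold step that rests on 4 cultured values below background (limma adjusted p = 0.00574). The difference was -4.95 on LN511 (adjusted p = 0.00744) and -4.31 on Mat (adjusted p = 0.0153), both from limma. On LN111 it was -3.18, with a 95% interval from -6.14 to -0.22, and did not pass (limma adjusted p = 0.0568), though without LN111 array 1 it was -3.97 and did (adjusted p = 0.0376). Without Mat array 2 the Mat difference was -2.92 and no longer passed (limma adjusted p = 0.0574). Without array 2 of all 3 coatings, a choice made after seeing these values, the LN111 difference was -1.91 and passed (limma adjusted p = 0.0114). Array 2 held the lowest Il1b value of each coating, so leaving it out had to narrow the spread and this pass is no added support.

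Il18 encodes interleukin-18, a caspase-1 substrate that induces interferon gamma in lymphocytes. At chr8:53943005-53943064 of rn4 its probe read -3.86, -2.69 and -2.62 on LN111, -3.77, -3.79 and -3.80 on LN511, -3.94, -3.65 and -4.09 on Mat, and -1.09, -1.47 and -1.16 in MH. All 12 arrays were well above background and the cultured and MH arrays did not overlap. Il18 was 5.07-fold lower in cultured cells (difference -2.34 ± 0.24, SE; limma adjusted p = 8.28e-06), and lower on each coating, by -1.82 on LN111, -2.55 on LN511 and -2.66 on Mat. With the slide as a block the LN111 difference was -1.53 and just missed the threshold (limma adjusted p = 0.0501). Between LN111 and LN511 it differed by 0.73, with a 95% interval of 0.01 to 1.45, which did not pass (limma adjusted p = 0.158), whereas without LN111 array 1, itself the lowest, it was 1.13 and did (adjusted p = 0.0101). Between LN511 and Mat the difference was 0.11, with an interval of -0.61 to 0.83.

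Il33 encodes interleukin-33, a nuclear protein released from damaged cells that signals through ST2 (Il1rl1). The probe at chr1:233685259-233685318 of rn4 read -1.32, -1.51 and 0.23 on LN111, -3.74, -4.40 and -3.67 on LN511, -2.01, -3.26 and -1.97 on Mat, and 0.50, 1.08 and 0.13 in MH. The order of the means was MH, LN111, Mat and LN511. LN111 array 3 lay above MH array 3, and no other cultured array reached the MH range. Cultured cells had 7.87-fold less Il33 than MH (difference -2.98 ± 0.41, SE; limma adjusted p = 7.56e-05). The LN511 level was 22.8-fold lower than MH (limma adjusted p = 2.19e-05) and the Mat level 7.92-fold lower (limma adjusted p = 0.000397). On LN111 the difference was -1.43 (limma adjusted p = 0.0272), which did not pass with the slide as a block (-2.10, adjusted p = 0.0951). Nor did it without LN111 array 1 (-1.21, adjusted p = 0.0889), LN111 array 2 (-1.11, 0.0995), MH array 1 (-1.47, 0.0543) or MH array 2 (-1.18, 0.0952), nor with no scaling (-0.48, 0.33) or with another background correction, normexp (-1.15, 0.0555), all in limma. In all it was lost in 8 of 17 alternative settings.

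Among coatings, Il33 was 8.42-fold higher on LN111 than on LN511, a difference of 3.07 ± 0.52 (SE; limma adjusted p = 0.00796), and the call held in all 17 alternative settings. The 3 coatings did not overlap in Il33, with Mat in the middle. LN111 minus Mat was 1.55 (95% interval 0.35 to 2.75; limma adjusted p = 0.367) and LN511 minus Mat was -1.52 (95% interval -2.73 to -0.32; limma adjusted p = 0.135), so neither passed.

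Il1rn encodes the secreted and intracellular forms of interleukin-1 receptor antagonist, which hepatocytes make as an acute-phase protein. Its probe, spotted 10 times per array at chr3:2613130-2613189 of rn4, gave 1.60, 0.95 and 1.08 on LN111, 2.43, 1.17 and 1.35 on LN511, 1.97, 1.15 and 2.15 on Mat, and 0.71, -1 and 0.27 in MH. Every cultured array was above every MH array. Il1rn was 2.91-fold higher in cultured cells (difference 1.54 ± 0.39, SE; limma adjusted p = 0.00452). It was higher by 1.21 on LN111, 1.65 on LN511 and 1.76 on Mat (limma adjusted p = 0.0441, 0.0105 and 0.00766). With the slide as a block the differences did not pass in cultured cells (1.08, limma adjusted p = 0.216), on LN111 (0.62, adjusted p = 0.598) or on LN511 (1.06, adjusted p = 0.354), while the Mat difference of 1.56 did. Within the slide that held MH and Mat the Mat difference was 1.56 (adjusted p = 0.0618). The LN111 call was lost without LN111 array 1 (1.02, limma adjusted p = 0.128), 2 (1.34, 0.0579) or 3 (1.28, 0.0726), and without MH array 2 (0.72, 0.171) or 3 (1.35, 0.0582). The coatings overlapped, and LN511 minus Mat was -0.10 with an interval of -1 to 0.79.

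Macrophage markers were lower in cultured cells than in MH, as Il1a, Il1b, Il18, Il33 and 10 of 11 hepatocyte markers were. Of 17 Kupffer cell and macrophage markers on the array, 4 to 11 were well above background on the cultured arrays and 16 on each MH array. Their summed level, as log2 of the summed scaled signal, ranged from -0.66 to 0.84 on LN111, -1.18 to 2.89 on LN511, -1.59 to -1.02 on Mat and 5.42 to 5.55 in MH. LN511 array 1, at 2.89, was the LN511 array on which Il1b and Il6 were well above background. Both genes were also above it on LN111 arrays 3 and 1, at sums of 0.84 and -0.66, and on Mat arrays 1 and 3, at -1.02 and -1.15. Neither was on LN111 array 2 (-0.10), LN511 arrays 3 and 2 (-0.15 and -1.18) or Mat array 2 (-1.59). All 16 macrophage markers tested were lower in cultured cells, with a median difference of -5.85, where 40.2% of all probes were lower. Only 6 of them were bright enough to be tested among coatings. The others passed the signal filter only through MH, so their direction was partly set by the filter. Clec4f, a Kupffer cell lectin, was well above background on 1 of 9 cultured arrays, LN511 array 1, at -5.39, and read 3.73, 3.46 and 3.71 in MH. Cd5l, Timd4, Marco and Adgre1 were not well above background on any cultured array, and Cd5l was at least 109-fold lower (limma adjusted p = 3.51e-09). On LN511 array 1 Il1a was below background. Il18 read -3.77 there, against -3.79 and -3.80 on the other LN511 arrays, and Il33 -3.74, against -4.40 and -3.67. The part of the macrophage markers in the lower Il1a, Il1b, Il18 and Il33 was not tested. In RNA from whole samples fewer cells of a type and less RNA per cell cannot be told apart. Of 10 sinusoidal endothelial markers tested, 9 were lower in cultured cells and none higher. Only 4 of the 10 were tested among coatings, and the others likewise passed the filter only through MH. Their summed levels were -1.12 to 1.80 on LN111, -2.80 to -0.19 on LN511, -2.31 to 0.56 on Mat and 3.5 to 3.68 in MH.

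**Figure D2:**
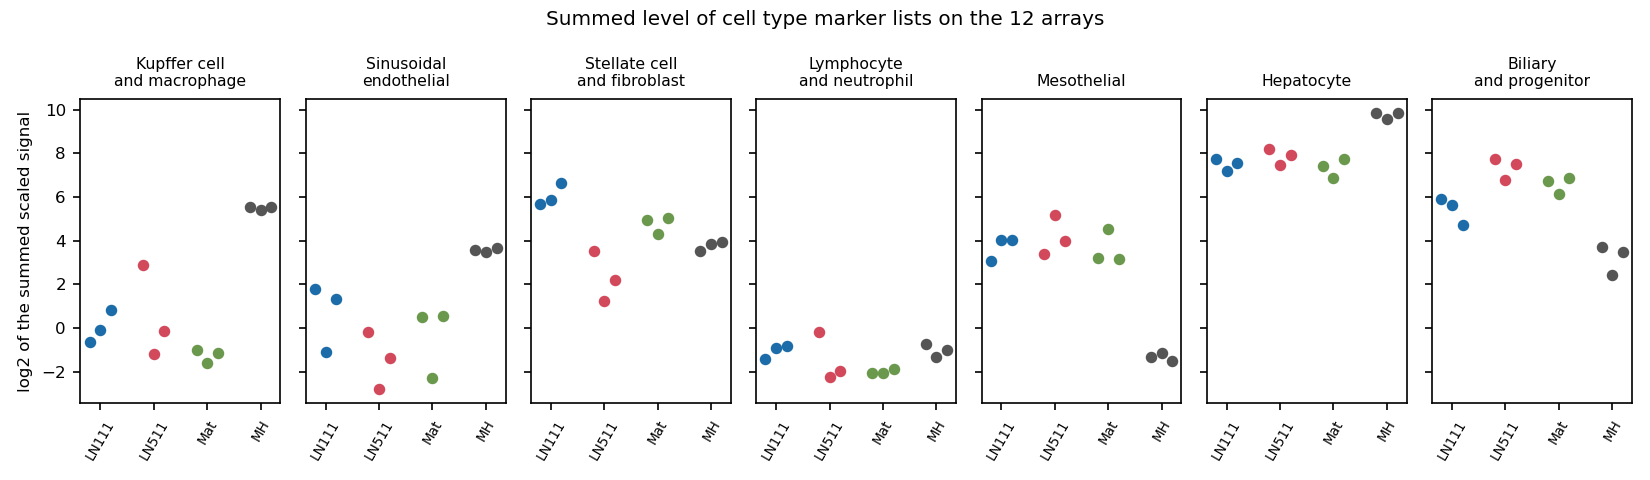
Log2 of the summed scaled signal of 7 marker lists on each of the 12 arrays, by group (LN111, LN511, Mat, MH); each point is 1 array. The Kupffer cell and macrophage list sits no higher than 2.89 in cultured cells and between 5.42 and 5.55 in MH, and the stellate cell and fibroblast list is lowest on LN511.

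Il6 encodes interleukin-6, the main inducer of acute-phase proteins in hepatocytes. Its probe spans an intron, so its 60 bases lie within chr4:457279-458563 of rn4. It read -4.17, -6.64 and -4.58 on LN111, -5.48, -8.05 and -7.78 on LN511, -4.01, -6.43 and -4.11 on Mat, and -7.47, -7.79 and -7.35 in MH. It was well above background on 5 of 9 cultured arrays, the same 5 as Il1b, and on no MH array. No group had it above background on all 3 arrays, so it was not tested. With no filter on dim probes, limma gave a cultured minus MH difference of 1.84 (adjusted p = 0.0417). By coating the difference from MH was 2.41 on LN111 (adjusted p = 0.0398), 0.43 on LN511 (adjusted p = 0.701) and 2.69 on Mat (adjusted p = 0.019). Without array 2 of the 3 coatings, a choice made after seeing these values, it was tested and differed by 2.51 in cultured cells against MH (limma adjusted p = 0.00145), and LN511 minus Mat was -2.57 (adjusted p = 0.143). Array 2 held the lowest Il6 value of each coating, so leaving it out had to raise the difference from MH.

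Il11 encodes interleukin-11, a gp130 cytokine made by stromal and epithelial cells. The probe at chr1:67792503-67792562 of rn4 read -3.75, -4.26 and -2.88 on LN111, -3.05, -2.90 and -2.61 on LN511, -2.31, -4.09 and -2.16 on Mat, and -7.23, -7.51 and -6.03 in MH. All 9 cultured arrays were well above background and no MH array was. Il11 was at least 4.46-fold higher in cultured cells (limma adjusted p = 2.66e-05). By coating it was at least 3.12-fold higher on LN111, 5.34-fold on LN511 and 5.34-fold on Mat (limma adjusted p = 0.000419, 9.59e-05 and 9.58e-05). On LN111 the difference of 3.29 fell short of the threshold with the slide as a block (2.25, limma adjusted p = 0.093) and under normexp (0.58, adjusted p = 0.225). No coating pair passed for Il11. LN111 minus LN511 was -0.77 (95% interval -2 to 0.45) and LN511 minus Mat 0.00 (95% interval -1.23 to 1.23).

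Lif encodes leukaemia inhibitory factor, which in liver induces acute-phase genes through gp130. Probes A_64_P115666 and A_43_P12157 overlap by 58 bases and are annotated to different Lif transcript records. They are shown because they read nearly the same stretch of the transcript and are not independent measures of it. Capitals mark the 4 bases at which the overlap differs, T45A, C50T, G52T and T56C, counted from 1 at the 5′ end of A_64_P115666, whose base is given first. On rn4 they lie at chr14:84890562-84890621 and chr14:84890560-84890619.
Lif A_64_P115666: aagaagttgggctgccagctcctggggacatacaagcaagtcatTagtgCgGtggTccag
Lif A_43_P12157: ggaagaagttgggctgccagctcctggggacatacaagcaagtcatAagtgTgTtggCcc
A_64_P115666 gave -5.28, -5.66 and -4.78 on LN111, -3.07, -4.05 and -3.16 on LN511, -4.57, -5.51 and -5.15 on Mat, and -4.93, -4.85 and -5.48 in MH. A_43_P12157 gave -6.22, -5.45 and -4.93 on LN111, -3.26, -4.49 and -3.65 on LN511, -5.50, -5.07 and -5.47 on Mat, and -6.20, -5.04 and -4.84 in MH. On both, every LN511 array lay above the arrays of the other groups. The third probe, A_44_P1112916, lies further along the transcript at chr14:84891698-84891757 and read -8.55, -7.81 and -7.03 on LN111, -3.70, -4.83 and -3.52 on LN511, -5.64, -5.76 and -6.38 on Mat, and -7.32, -7.59 and -7.18 in MH. It was well above background on all LN511 arrays, on Mat arrays 1 and 2 and on no LN111 or MH array.

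Lif was lower on LN111 than on LN511 on all 3 probes. The differences were -1.81 ± 0.36 (SE; limma adjusted p = 0.0132) on A_64_P115666 and -1.74 ± 0.39 (adjusted p = 0.0219) on A_43_P12157, which are 3.52-fold and 3.33-fold. A_44_P1112916 was at least 4-fold lower (limma adjusted p = 0.00354), and that call held in all 15 alternative settings. Of single arrays, leaving out LN511 array 3 ended the calls on the first pair (limma adjusted p = 0.0515 and 0.0744), and on A_43_P12157 so did leaving out LN111 array 1 (0.0542) or LN511 array 1 (0.0642). Under normexp the A_43_P12157 difference was -0.92 and did not pass (limma adjusted p = 0.067).

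Against Mat, LN511 cells had 3.14-fold more Lif on A_64_P115666 (difference 1.65 ± 0.36, SE; limma adjusted p = 0.0306) and 3.76-fold more on A_44_P1112916 (1.91 ± 0.46, adjusted p = 0.0455). On A_43_P12157 the difference of 1.55 had an interval of 0.65 to 2.45 and did not pass (limma adjusted p = 0.0537), but did in 3 of 16 alternative settings, among them without LN511 array 2 (1.89, adjusted p = 0.0405). With the slide as a block the called pair gave 1.72 and 2.36 and no longer passed (limma adjusted p = 0.254 and 0.191). The call on A_64_P115666 was lost in 8 of 18 alternative settings and that on A_44_P1112916 in 10 of 16, among them leaving out LN511 array 1 or 3 or Mat array 2 or 3, and on A_44_P1112916 also Mat array 1. Without these single arrays the differences lay at 1.43 to 1.61 on A_64_P115666 and 1.66 to 2.05 on A_44_P1112916. With no scaling between arrays they were smaller, 0.54 (limma adjusted p = 0.206) and 0.80 (adjusted p = 0.117).

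Against MH, LN511 cells had 3.16-fold more Lif on A_64_P115666 (difference 1.66 ± 0.35, SE; limma adjusted p = 0.00162), 2.94-fold more on A_43_P12157 (adjusted p = 0.00974), and on A_44_P1112916 the bound was 2.39-fold more (adjusted p = 5.38e-05). With the slide as a block the first pair missed the threshold (1.77 and 1.74, limma adjusted p = 0.0549 and 0.122), and with normexp likewise (0.50 and 0.25, adjusted p = 0.0836 and 0.461). LN111 minus MH was -0.15 (95% interval -0.92 to 0.61) on A_64_P115666 and Mat minus MH was 0.01 (95% interval -0.76 to 0.78). A_44_P1112916 passed for Mat against MH (difference 1.44, limma adjusted p = 0.0117), with no fold given because MH was below background and the Mat mean did not exceed the floor. That difference turned to -0.65 under normexp and to -0.57 when signals were raised to the background.

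Tnf encodes tumour necrosis factor, which hepatocytes sense through Tnfrsf1a. Probe A_64_P034414, at chr20:3663558-3663617 of rn4, read -0.39, -4.55 and -1.54 on LN111, 0.42, -2.92 and -0.09 on LN511, -0.70, -4.00 and -0.83 on Mat, and -5.02, -5.31 and -3.34 in MH. All cultured arrays and MH array 3 were well above background. LN111 array 2 and Mat array 2 lay below MH array 3, and the other 7 cultured arrays lay above every MH array. Tnf was 7.63-fold higher in cultured cells, a difference of 2.93 ± 1.04 (SE; limma adjusted p = 0.0268). It did not pass with the slide as a block (1.75, limma adjusted p = 0.454), under normexp (1.64, adjusted p = 0.0835), or without MH array 1 (2.70, adjusted p = 0.0882) or MH array 2 (2.55, adjusted p = 0.103).

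By coating, Tnf was 12.9-fold higher on LN511 than in MH (difference 3.69, limma adjusted p = 0.0257), a call lost in 6 of 16 alternative settings. These were the slide as a block (2.17, limma adjusted p = 0.484), normexp (2.29, adjusted p = 0.0628) and leaving out LN511 array 1 (3.05, adjusted p = 0.0894), LN511 array 3 (3.31, 0.0788), MH array 1 (3.46, 0.0692) or MH array 2 (3.31, 0.0778). LN111 minus MH was 2.40 (95% interval -0.44 to 5.23; adjusted p = 0.123) and Mat minus MH 2.71 (-0.12 to 5.54; adjusted p = 0.0842), both from limma and not past the threshold. Without array 2 of all 3 coatings, a choice made after seeing these values, these were 3.59 and 3.79 and passed (limma adjusted p = 0.00132 and 0.00102). Array 2 held the lowest Tnf value of each coating. Leaving it out thus had to raise the difference and narrow the spread, so this pass is no added support. Between coatings the interval of LN111 minus LN511 ran from -4.42 to 1.83, and no pair passed in these fits, which hold no block for array number. The other Tnf probe, A_43_P11513 at chr20:3662706-3662765, was well above background on LN111 array 1 and LN511 array 1 alone and was not tested, with means of -6.96 ± 1.24 on LN111, -6.16 ± 1.45 on LN511, -7.71 ± 0.78 on Mat and -7.42 ± 0.22 in MH (SD, n = 3 each). With no filter its cultured minus MH difference was 0.47 (limma adjusted p = 0.524), so the 2 Tnf probes did not give the same call.

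Csf1 encodes CSF-1, the growth and survival factor of macrophages. Probe A_42_P695042, at chr2:203292994-203293053 of rn4, read 1.76, 1.01 and 2.46 on LN111, 0.20, 0.51 and 0.26 on LN511, 1.03, 0.84 and 0.99 on Mat, and -3.12, -3.48 and -2.92 in MH. Probe A_44_P1103077, at chr2:203296273-203296332, read -1.38, -2.09 and -0.54 on LN111, -2.61, -3.04 and -2.70 on LN511, -2.10, -2.53 and -1.89 on Mat, and -7.20, -6.15 and -6.30 in MH, where it was not well above background. On both probes all cultured arrays were above all MH arrays, and all LN111 arrays above all LN511 arrays.

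Csf1 was 18.1-fold higher in cultured cells than in MH on A_42_P695042 (difference 4.18 ± 0.25, SE; limma adjusted p = 1.52e-07). On A_44_P1103077 the step was at least 9.02-fold (adjusted p = 5.42e-07). On A_42_P695042 it was 30.2-fold higher on LN111, 11.3-fold on LN511 and 17.5-fold on Mat, and each of these held in all alternative settings. LN111 exceeded LN511 by 2.67-fold on A_42_P695042 (1.42 ± 0.32, SE; limma adjusted p = 0.0223) and by 2.72-fold on A_44_P1103077 (1.45 ± 0.37, adjusted p = 0.0326). The first call was lost without LN111 array 1 (1.41, limma adjusted p = 0.0585), LN511 array 1 (1.36, 0.0648) or LN511 array 3 (1.39, 0.0726). The second was lost in 7 of 16 settings, among them without any single LN111 or LN511 array except LN111 array 2. LN111 minus Mat on A_42_P695042 was 0.79 (95% interval 0.05 to 1.53; adjusted p = 0.405) and LN511 minus Mat -0.63 (-1.37 to 0.11; adjusted p = 0.317), both short of the limma threshold.

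Stellate cell and fibroblast markers summed higher on LN111 than on LN511, as Il33 and Csf1 were. The summed level of the 13 such markers on the array was 5.67 to 6.64 on LN111, 1.26 to 3.52 on LN511, 4.31 to 5.03 on Mat and 3.52 to 3.93 in MH. The MH sum was at or above that of LN511. Csf1 on A_42_P695042 averaged -3.17 in MH and 0.33 on LN511, and Il33 averaged highest in MH, at 0.57. Of 9 stellate cell and fibroblast markers tested, 5 were higher on LN111 than on LN511 and none lower, with a median difference of 3.43. Over all probes 5.68% were higher and 10.1% lower. Pdgfrb, a growth factor receptor of stellate cells, differed by 4.36 (limma adjusted p = 0.00435), and Acta2, the smooth muscle actin of activated stellate cells, by 3.91 (adjusted p = 0.0024). Not every marker of the list went this way. Lrat read -3.89, -1.03 and -3.91 on LN111 and -3.44, -0.43 and -1.89 on LN511. Reln overlapped, at 0.31, -2.36 and -0.17 on LN111 and 0.91, -2.57 and -0.36 on LN511. The LN111 sum came mostly from the collagen gene Col1a1, at 5.01, 5.50 and 6.05. The biliary and progenitor markers Epcam (-1.63, limma adjusted p = 0.0117), Sox9 (-1.59, adjusted p = 0.0253) and Cldn4 (-2.51, adjusted p = 0.00325), 3 of 8 tested, were lower on LN111 than on LN511, as Lif was. Neither marker list's part in Il33, Csf1 or Lif was tested. Of the other lists, lymphocyte and neutrophil markers summed to -1.44 to -0.82 on LN111, -2.25 to -0.18 on LN511, -2.07 to -1.88 on Mat and -1.31 to -0.72 in MH. Mesothelial markers summed to 3.06 to 4.02 on LN111, 3.37 to 5.16 on LN511, 3.14 to 4.53 on Mat and -1.51 to -1.14 in MH.

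Counted over probes, 7 of the 12 tested passed for LN111 against MH (4 higher, 3 lower), where 65% of all probes passed, 27.8% higher and 37.2% lower. For LN511 against MH 12 passed (8 higher, 4 lower), where 66.3% of all probes did, 31.4% higher and 34.9% lower. For Mat against MH 9 passed (5 higher, 4 lower), where 65.8% of all probes did, 25.9% higher and 39.9% lower. Their median differences were -0.17, 1.66 and 0.73, against -0.17, -0.07 and -0.25 over all probes. These 3 comparisons share the MH arrays and are not independent of each other. Among coatings, where 10 member probes were tested, 6 passed for LN111 against LN511 (3 higher, 3 lower, from Il33, Csf1 and Lif), where 15.8% of all 22348 probes passed, 5.68% higher and 10.1% lower. Probes of the same gene are not independent, and by gene these were 3 of the 7 tested. For LN511 against Mat, 2 probes passed, both of Lif and both higher, where 7.22% of all probes passed, 6.27% higher and 0.949% lower. For LN111 against Mat none passed in limma (0% of all probes), while 4 member probes and 2638 of all probes had an unadjusted p under 0.05.

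**Figure D3:**
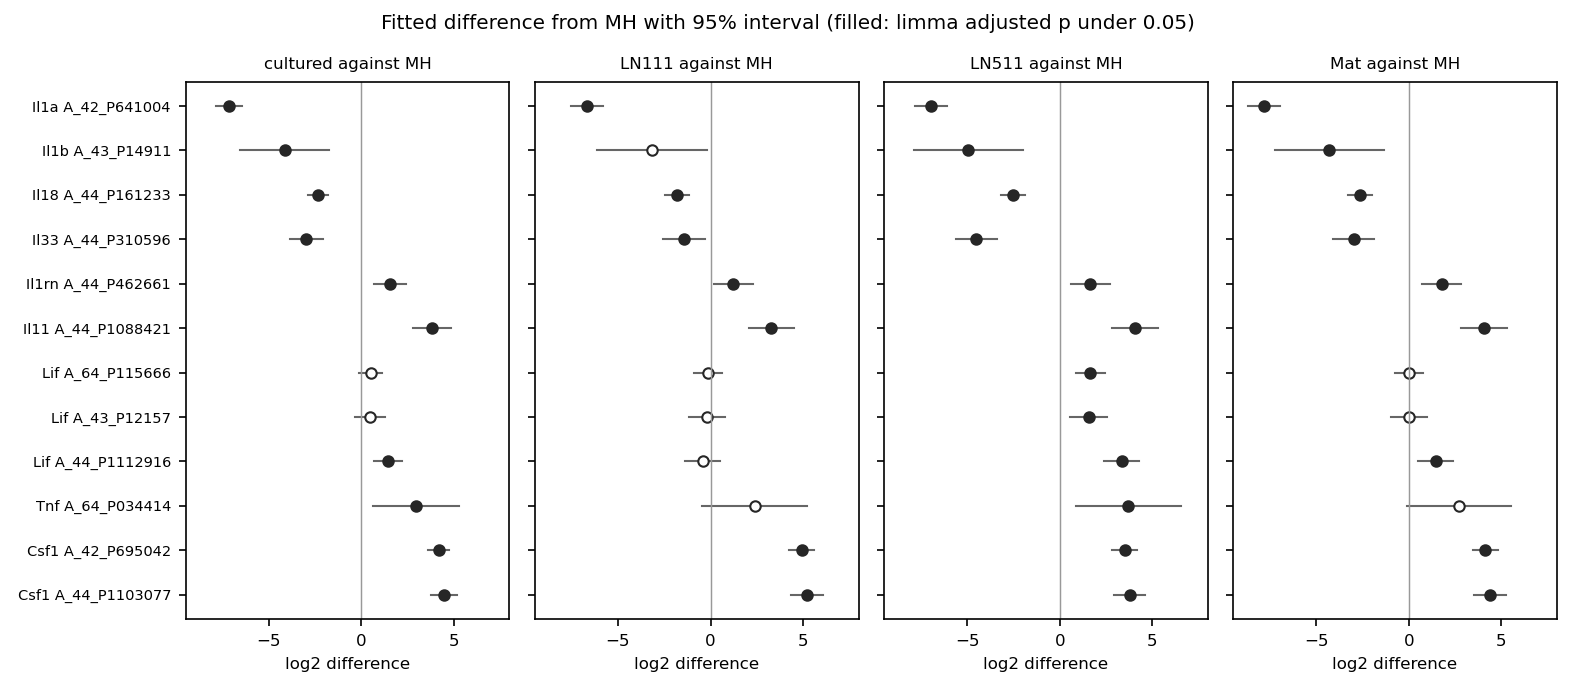
Fitted log2 difference from MH of the 12 tested member probes, for cultured cells and for LN111, LN511 and Mat, with 95% intervals; filled points passed limma's adjusted threshold of 0.05. Il1a, Il18 and Il33 lie left of 0 and Csf1 and Il11 right of 0 in all 4 panels, and the 3 Lif points are all filled in the LN511 panel.

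**Figure D4:**
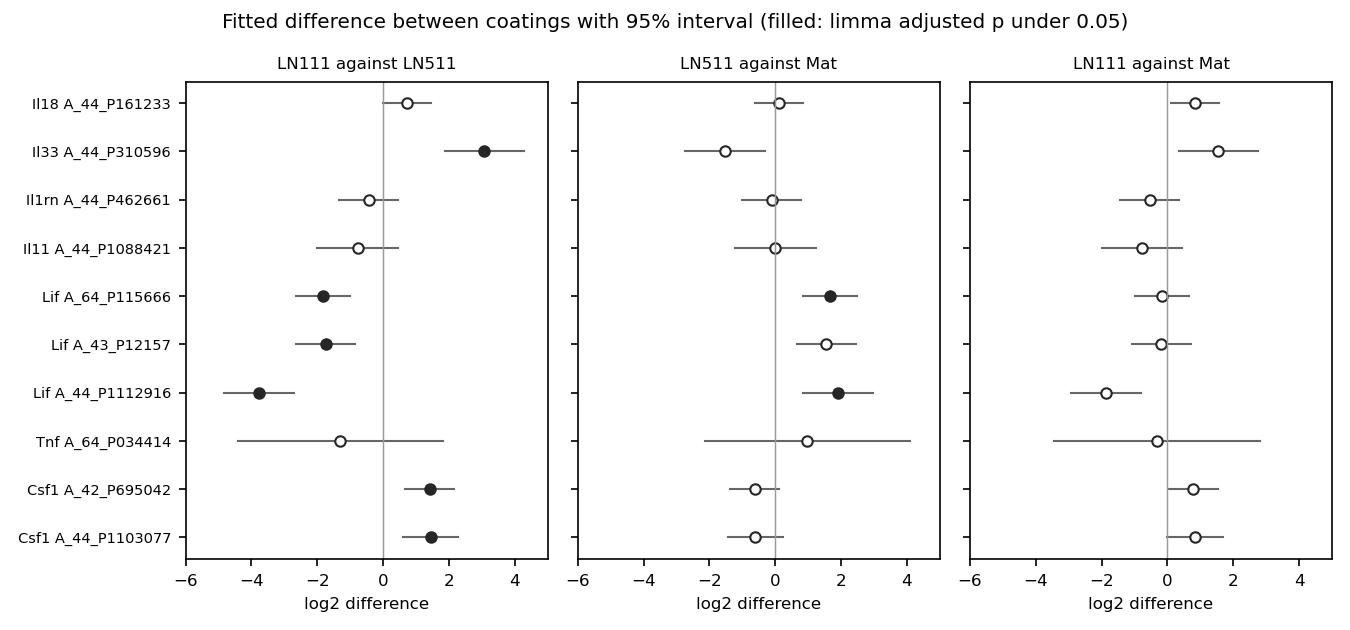
Fitted log2 difference between coatings of the 10 member probes tested there, with 95% intervals; filled points passed limma's adjusted threshold of 0.05. Il33 and Csf1 are filled on the right and the 3 Lif probes on the left for LN111 against LN511, and no point is filled for LN111 against Mat.

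Array 2 of the coatings was low in several members at once. The array numbered 2 was the lowest of its group in all 3 coatings for 8 of the 14 member probes (57.1%), and the highest for none. They were those of Il1b, Il6, Il33 and Il1rn, both of Tnf, A_64_P115666 of Lif and A_44_P1103077 of Csf1. Part of this order lay among values below background, which have no order. Il1b and Il6 were below it on arrays 2 and 3 of LN511, and Tnf A_43_P11513 on every Mat array. Of the 10 member probes tested among coatings, array 2 was lowest in all 3 for 5 (50%). Each of these 5 was well above background on all 9 cultured arrays. Over all 22348 probes tested among coatings, array 2 was lowest in all 3 for 13.1% and highest for 15.8%. Il1b on array 2 was below the mean of arrays 1 and 3 by a difference of -3.83 on LN111, -2.41 on LN511 and -4.15 on Mat, against 0.81 in MH. For Tnf on A_64_P034414 the differences were -3.58, -3.08 and -3.24, against -1.13 in MH. For Il6 they were -2.26, -1.42 and -2.37, against -0.38 in MH. Il18 did not share this, at 0.55, -0.01 and 0.36, against -0.34 in MH.

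**Figure D5:**
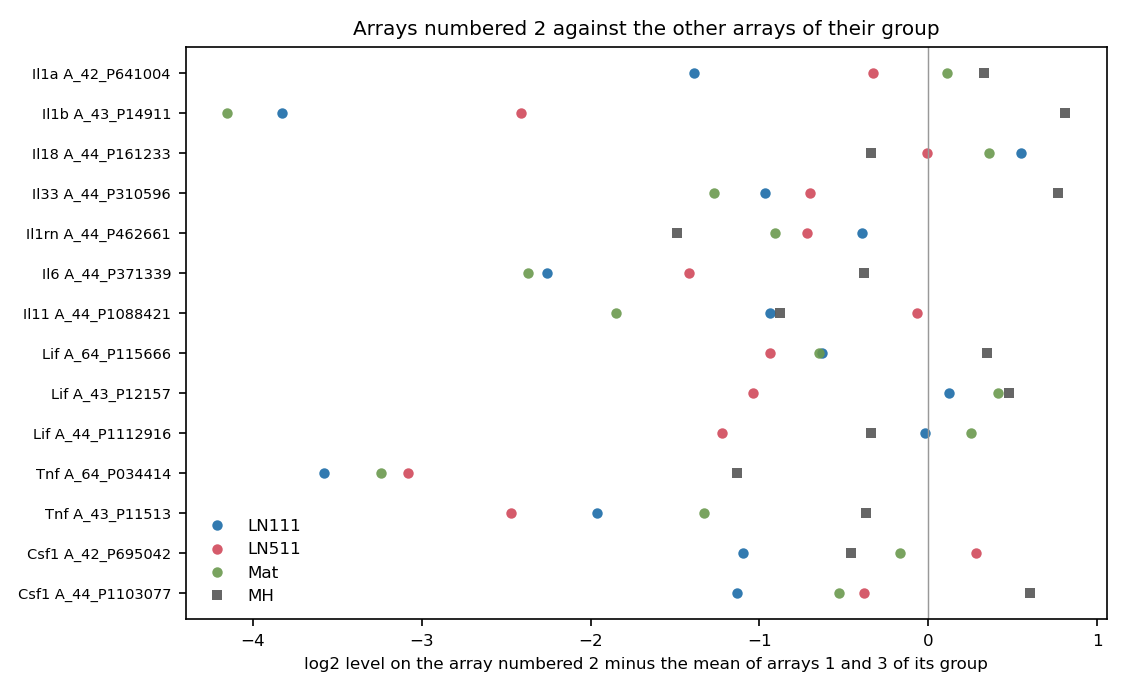
Log2 level on the array numbered 2 minus the mean of arrays 1 and 3 of the same group, for each member probe; circles are LN111, LN511 and Mat and squares are MH. Il1b and Tnf A_64_P034414 lie between -4.15 and -2.41 in the coatings, and Il18 lies near 0.

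The same arrays were low in some genes outside the set and high in others. A2m, alpha-2-macroglobulin, a strong interleukin-6 target in rat liver, was at 3.53 on LN111 array 2, 0.30 on LN511 array 2 and 2.69 on Mat array 2, against 3.73 to 5.93 on the other cultured arrays. The endothelial markers summed to -1.12, -2.80 and -2.31 there, the lowest of each coating, as were the 20 hepatocyte targets of gp130 and interleukin-1 signals (7.34, 5.77 and 6.64) and the hepatocyte markers (7.21, 7.48 and 6.87). Of the hepatocyte markers, Hnf4a was highest there on LN111 (2.53) and Mat (2.90) and lowest on LN511 (0.60). The summed mesothelial level was highest there on LN511 (5.16) and Mat (4.53), as were Msln (4.97 and 4.32) and Upk1b (2.16 and 1.59). Other genes of that list went the other way. Wt1 was lowest there on LN111 (-3.98) and Mat (-5.34) and below background on LN511 arrays 2 and 3. Gpm6a was lowest there on Mat (-5.19) and below background on LN511 array 2. Lrrn4 was lowest there on LN111 (-3.55) and LN511 (-3.53). From other lists, 4 genes were highest there in all 3 coatings. They were Krt7 (3.92, 5.40 and 4.66), Krt19 (4.27, 4.79 and 4.33), Lrat (-1.03, -0.43 and -0.75) and the cytokine Il24 (-2.07, 1.23 and 0.60). The Kupffer cell and macrophage list summed to -0.10, -1.18 and -1.59, the lowest in LN511 and Mat but not in LN111. The same held for the biliary and progenitor list (5.63, 6.76 and 6.16) and the stellate cell and fibroblast list (5.85, 1.26 and 4.31). The part of these genes and lists in the low Il1b, Il6 and Tnf values was not tested.

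Of 15 receptors and decoys of these cytokines tested, 4 were higher and 9 lower in cultured cells than in MH, where all probes were also more often lower (40.2%) than higher (31.3%), with a median difference of -1.19 against -0.15 over all probes tested. Il1r2, the decoy receptor that binds interleukin-1 without signalling, was at least 15.7-fold higher in cultured cells (limma adjusted p = 2.2e-08), with levels of -2.07 to -0.24 on the cultured arrays and below background in MH. Il1rap, the accessory chain of the interleukin-1, interleukin-33 and related receptors, was lower by a difference of -2.37 ± 0.15 (SE; limma adjusted p = 2.61e-07). Il11ra1, the interleukin-11 receptor, differed by -2.36 (adjusted p = 5.14e-08), and Sigirr, an inhibitory receptor of the family, by -4.05 (adjusted p = 8.47e-07), both from limma and lower in cultured cells. Between coatings, Il1rl1, the interleukin-33 receptor, was higher on LN511 than on Mat by 1.10 (limma adjusted p = 0.0361), and no other of the 14 tested passed in any pair.

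Genes that process and release these cytokines went both ways. Of 12 tested, 6 were higher and 5 lower in cultured cells than in MH, with a median of 0.09. Rhbdf2, the rhomboid partner of the TNF-releasing protease ADAM17, was higher by 3.66 ± 0.15 (SE; limma adjusted p = 1.39e-08). Capn2, a subunit of the calpains that cleave interleukin-1 alpha, and Adam10, a membrane protease, were higher by 1.74 (limma adjusted p = 9.75e-07) and 1.77 (adjusted p = 1.06e-05). Furin, a proprotein convertase, was lower by a difference of -1.75 (limma adjusted p = 4.84e-07). Between LN111 and LN511, 4 of 11 were higher on LN111 and none lower, where 5.68% of all probes were higher and 10.1% lower. They were Casp1, the protease that cleaves interleukin-1 beta and interleukin-18 (3.66, limma adjusted p = 0.0173), Pycard, the inflammasome adaptor (1.85, adjusted p = 0.0142), Gsdmd, the pore former (1.25, adjusted p = 0.01), and Adam17 (0.71, adjusted p = 0.0224). The size of the Casp1 difference rests on values below background on LN511 arrays 2 and 3 (-7.67 and -6.82). These 4 genes were named after their values were seen. The stellate cell and fibroblast markers also summed higher on LN111 than on LN511, and their part in these differences was not tested.

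Among signal transducers 7 of 23 were higher and 9 lower in cultured cells than in MH, with a median of 0.07. Irak3, an inhibitory kinase-like protein of interleukin-1 signalling, was higher by 2.91 (limma adjusted p = 2.04e-07), and Stat5a and Stat5b were lower by differences of -1.88 and -2.03 (limma adjusted p = 1.67e-05 and 9.82e-06). Between LN111 and LN511, 3 of 23 were lower on LN111 and none higher (10.1% and 5.68% of all probes), Irak2 (-1.45, limma adjusted p = 0.0061), Irak3 (-0.94, adjusted p = 0.0163) and Traf2 (-0.51, adjusted p = 0.0447), named after their values were seen.

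Of 20 hepatocyte genes that gp130 and interleukin-1 signals are known to regulate, 6 were higher and 9 lower in cultured cells than in MH, with a median of -0.68. Lcn2, lipocalin-2, was at least 76.1-fold higher (limma adjusted p = 5.39e-09) and A2m higher by 6.76 ± 0.94 (SE; adjusted p = 8.31e-05). Crp, C-reactive protein, and Hpx, haemopexin, were lower by differences of -5.45 (limma adjusted p = 1.21e-05) and -4.46 (adjusted p = 0.000166). The list thus held large changes of both signs, and the hepatocyte markers as a whole were lower, with 10 of 11 tested lower and none higher.

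Of 47 other cytokine ligands listed, 42 were on the array and 23 were tested, with 8 higher and 7 lower in cultured cells than in MH and a median of 0.47. Clcf1, a gp130 cytokine, was higher by 5.97 ± 0.27 (SE; limma adjusted p = 2.14e-08), and Kitlg, the ligand of the receptor KIT, by 4.99 (adjusted p = 2.41e-08). Il25 was at least 2.89-fold lower (limma adjusted p = 5.34e-07), and Mif, macrophage migration inhibitory factor, was lower by a difference of -1.75 (adjusted p = 1.63e-06). Between LN111 and LN511, 2 of 20 were higher and 7 lower on LN111 (5.68% and 10.1% of all probes). Il34, which signals through the CSF-1 receptor, was higher on LN111 by 4.59 (limma adjusted p = 0.0183), and Csf2 was lower by a difference of -2.22 (adjusted p = 0.0412); this pair was named after its values were seen.

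The genes most like each tested member in level over the 12 arrays were found by Pearson's r, given as a description. Il1a was most like Aass (r = 0.998) and Clec2d2l1 (0.996), Il1b like Ugt2a1 (0.982) and Fam20a (0.974), Il18 like Cyp2u1 (0.984) and Ankrd46 (0.983), and Il33 like Hpgd (0.978) and Lamp2 (0.977). Il1rn was most like Cxadrl1 (0.94) and Il17rb (0.937), and Il11 like Tinagl1 (0.968) and Bex1 (0.958). Lif on A_64_P115666 was most like Atp13a3 (0.943) and Tada1 (0.939), and Csf1 on A_42_P695042 like Lbh (0.997) and Flrt2 (0.997). Tnf on A_64_P034414 was most like Sstr3 (0.967) and Il23a (0.974), a cytokine subunit gene that was likewise lowest on array 2 of each coating, at -6.58, -4.77 and -5.64. The arrays of all these probes are the same, so the values share depth, slide and group.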

How the data were processed

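The deposited scanner files hold a background-subtracted, detrended linear intensity per spot made by the scanner software (Agilent Feature Extraction, given as version 10.7 in the submitters' processing notes), and per the file headers its low signals are surrogate values. Probe coordinates are on rn4, per the file headers. The authors' deposited value table holds the same intensity on a linear scale, not scaled between arrays and not centred, at most 0.0072 on the log2 scale from the scanner values. Columns of LN111 had medians of 88.7, 84.5 and 62.7, columns of LN511 61.6, 65.9 and 58.8, columns of Mat 123, 131 and 81.5, and columns of MH 36.6, 37.3 and 31.8. As a one-colour signal it has no direction.

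Log2 values were computed from the deposited intensity as log2 of the processed signal minus that of the array's 75th percentile, without control and outlier-marked spots, and spots of a probe were averaged. Every probe was fitted with limma 3.58.1 (lmFit, eBayes) in R 4.3.3, with the package data.table (version 1.17.8). Comparisons with MH used all 12 arrays, and those among coatings the 9 cultured arrays. Promoters and figures were handled in Python 3.11.15. The scripts were tested on simulated data. All 14 member probes carried the same symbol in the RefSeq gene table. No genome was used.

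The members, the gene lists, the tests and the alternatives were chosen with earlier results of these data known. Named genes were the members, up to 4 genes per list with the smallest p in cultured cells against MH, the leading cell type markers, and for each member the genes of highest Pearson's r. Exceptions are marked where they stand. Alternatives covered the background correction, the scaling, the filter, the floor, slide and replicate blocks, 1 probe per gene, the deposited table and left-out arrays.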

Additional observations from a re-analysis of the deposited data

How the results depend on the processing

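The count of member probes past the threshold stayed within 1.5 times its reported value except as follows. Reported counts were 10 (cultured against MH), 7 (LN111 against MH), 12 (LN511 against MH), 9 (Mat against MH), 0 (LN111 against Mat), 2 (LN511 against Mat) and 6 (LN111 against LN511). A filter asking for signal above background on all arrays left 4 member probes in the comparisons with MH, and all 4 passed in each. For LN511 against Mat the count was 6 with no scaling, 4 with the replicate block, 1 with that strict filter, 1 with 1 probe per gene, 0 with no filter, 0 with the slide as a block and 0 within the slide. It was 1 without array 2 of all 3 coatings, an alternative chosen after seeing the data. LN111 against MH had 3 with the slide as a block, and LN111 against LN511 had 3 with 1 probe per gene. Leaving out each array in turn gave 9 to 11 (cultured against MH), 5 to 7 (LN111 against MH), 11 to 12 (LN511 against MH), 9 to 10 (Mat against MH), 0 (LN111 against Mat), 0 to 3 (LN511 against Mat; 0 without LN511 array 1 or 3 or Mat array 2 or 3) and 2 to 6 (LN111 against LN511; 3 without LN511 array 1, 2 without LN511 array 3). Where this left 2 arrays in a group, the fit assumed a shared spread.

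The sign differed from the reported one in 45 results of single member probes, 37 of them with no call either way. The other 8 had a call as reported or under the alternative. With normexp, Lif A_44_P1112916 was -0.17 in cultured cells against MH, and Mat against MH was -0.93 for A_43_P12157, -0.65 for A_44_P1112916 and -0.82 for A_64_P115666. With signals raised to the background, A_44_P1112916 was -0.02 in cultured cells and -0.57 on Mat, both against MH. With no scaling, LN511 against Mat was -1.11 for Il11 and -1 for Il18. Of all results of single member probes outside these 8, 1258 kept their side of the threshold, 72 lost a call and 33 gained one. The cause was not tested.

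The median of all probes in cultured cells against MH was -0.15 as reported, -0.39 with normexp, -0.14 with quantile scaling and 0.88 with no scaling, and the share of calls that were higher was 43.8%, 26.4%, 44.2% and 78.5%. The medians for LN511 against Mat were 0.14, 0.28, 0.03 and -0.96, with 86.9%, 96.1%, 70.9% and 3.9% of calls higher, and for LN111 against LN511 36%, 25.9%, 43.8% and 77.3% of calls were higher. Set against MH, the share was 42.8%, 25.5%, 42.4% and 77% on LN111. It was 47.3%, 35.3%, 45.1% and 66% on LN511, then 39.4%, 20.5%, 42.5% and 87% on Mat.

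The labels do not say that array numbers pair the samples. Deviations of same-numbered coating arrays correlated at 0.47 to 0.53 for number 1, 0.53 to 0.72 for number 2 and 0.07 to 0.12 for number 3, and coating with MH arrays at -0.03 to 0.06. Of the 9 coating arrays, 7 correlated best with their own number in both other coatings. The fits as reported hold no block because no label ties the numbers to a shared origin. A shift shared by same-numbered arrays thus stayed in their error. With the replicate block the counts were 10, 9, 12, 10, 0, 4 and 7 in the order above. It added Tnf A_64_P034414 for LN111 against MH (adjusted p = 0.00792), Mat against MH (0.00415), LN511 against Mat (0.98, 0.0326) and LN111 against LN511 (-1.30, 0.00749), Il1b for LN111 against MH (0.0167) and Il33 for LN511 against Mat (0.0257), all in limma.

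The members near background, Il6, Tnf A_43_P11513, Lif and Il1b, are limited by signal: values there depend on surrogate signals and on the background correction, and a probe not well above background has a bound and no order.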
